A study of Mus musculus with 20 samples.

Results

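The integrated stress response was followed in the gastrocnemius, a fast muscle of the calf, through 10 genes: Atf4, Ddit3, Trib3, Asns, Psat1, Phgdh, Mthfd2, Chac1, Fgf21 and Gdf15. The genes were chosen by name, as members of the ATF4 pathway and as stress-induced myokines, and were found by their Ensembl identifiers among the 55401 genes of the count matrix. All 10 were listed there. Of these, 8 passed the filter on low counts, whereas Fgf21 and Gdf15 did not and were too low to measure. RNA came from 20 old mice, each a separate library and described in the study as C57BL/6, of which 10 were untreated and 10 were treated with Haenkenium (HK), a standardised polyphenol-rich extract of the sage Salvia haenkei. HK was given in drinking water at 0.5 mg/kg/day from 20 months of age, and muscle was taken at 24 months after 4 months of treatment, whereas untreated mice received drinking water alone. Each treatment group held 5 males and 5 females, and the libraries were split over 2 experimental batches that the study describes as separate sequencing experiments, with 8 mice in batch 1 and 12 in batch 2 and equal numbers of treated and untreated mice in both. No transgene or mutation was named in the labels, and young mice were not analysed here.

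In the integrated stress response, kinases that sense amino acid shortage, unfolded protein, haem deficit or viral RNA phosphorylate the translation factor eIF2 on its alpha subunit. General translation then falls, while translation of the transcription factor ATF4 rises, and ATF4 switches on genes for amino acid synthesis and transport, for the pro-apoptotic factor CHOP (encoded by Ddit3) and for the pseudokinase TRIB3. In skeletal muscle with mitochondrial stress the same programme is known for serine and one-carbon enzymes and for the secreted hormones FGF21 and GDF15. Because ATF4 is controlled largely at translation, and by phosphorylation upstream of it, the transcript levels given here do not measure the activity of the pathway directly.

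ATF4 acts by binding, with a partner, to composite elements in its target genes. The letters TGATGNAA, a core often given for this element, were searched on both strands in the RefSeq windows of GRCm38.p6 that run from 250 bases before to 50 bases after each gene start. All 10 genes were found in that table, with 12 windows. A match was present in 4 of the 10 genes, against 4.51% of all 27025 genes and 3.97% of all 32851 windows in the table. Because the genes were chosen as members of the ATF4 pathway, this comparison of shares is not a test. For Psat1 and Mthfd2, which had no match, the windows lay inside the GENCODE M21 gene models and not at their starts. The matches are printed here because they mark which of the genes carry the letters close to their start, and the capitals show the 8 matching bases inside a stretch of 30 bases read in the direction of the gene.
Chac1, chr2:119351038-119351067, plus strand: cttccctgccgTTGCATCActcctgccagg
Trib3, chr2:152344028-152344057, minus strand: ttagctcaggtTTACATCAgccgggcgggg
Asns, chr6:7693214-7693243, minus strand: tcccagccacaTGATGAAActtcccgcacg
Fgf21, chr7:45615611-45615640, minus strand: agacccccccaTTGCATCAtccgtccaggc
The match in Asns lay on the same strand as the gene, and those in the other 3 genes read as the reverse complement. The first base of the match was 193 bases before the RefSeq start in Chac1, 139 bases before it in Fgf21, 23 bases before it in Asns and 14 bases after it in Trib3. In the GENCODE M21 models, the match in Asns fell in an exon annotated as UTR, whereas those of Chac1, Trib3 and Fgf21 fell outside the gene. A match is a string of letters and not a binding site.

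Total counts ran from 13900180 to 30469644 per library, with a median of 17016047. Genes are compared with each other as CPM, read counts put on a common library size with TMM scaling, divided by the exonic length in kilobases. Muscle fibre markers (such as Ckm and Acta1) together made up 122294 to 168110 CPM of every library. Defining markers of other cells were present at far lower sums. The 5 fibroblast genes reached the highest of these, from 153 to 1307 CPM. Sums ran from 22.6 to 308 CPM for 10 macrophage genes and from 73.2 to 295 CPM for 5 adipocyte genes. They ran from 61.5 to 198 CPM for 5 endothelial genes and from 28.7 to 388 CPM for 4 haemoglobin genes. In whole muscle a lower value may come from fewer cells of a type or from less RNA per cell, and these cannot be told apart.

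Atf4, the transcription factor at the centre of the response, had the highest level per length, at 63.8 ± 9.98 CPM per kb (SD, n = 20 mice). Chac1, an enzyme that degrades glutathione and an ATF4 target, followed at 26.3 ± 14.1 CPM per kb. Ddit3 stood at 4.49 ± 1.26 and Mthfd2, a mitochondrial enzyme of folate metabolism, at 1.95 ± 0.936 CPM per kb. In this order Atf4 was above Chac1 in 20 of 20 mice, Chac1 above Ddit3 in 20 of 20, and Ddit3 above Mthfd2 in 18 of 20.

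Below these came a group whose neighbours could not be ordered beyond their spread. Psat1 and Phgdh, enzymes of serine synthesis, had 0.563 ± 0.384 and 0.414 ± 0.214 CPM per kb. Asns, which makes asparagine, had 0.499 ± 0.205, and Trib3, a pseudokinase induced by ATF4 and CHOP, had 0.443 ± 0.199 CPM per kb. Between neighbours in this group the gene with the higher mean was above the next in 10 or 11 of 20 mice. Fgf21 at 0.162 ± 0.142 CPM per kb and Gdf15 at 0.0868 ± 0.0753 CPM per kb closed the order and did not differ from each other beyond their spread, Fgf21 being the higher in 11 of 20 mice.

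**Figure D1:**
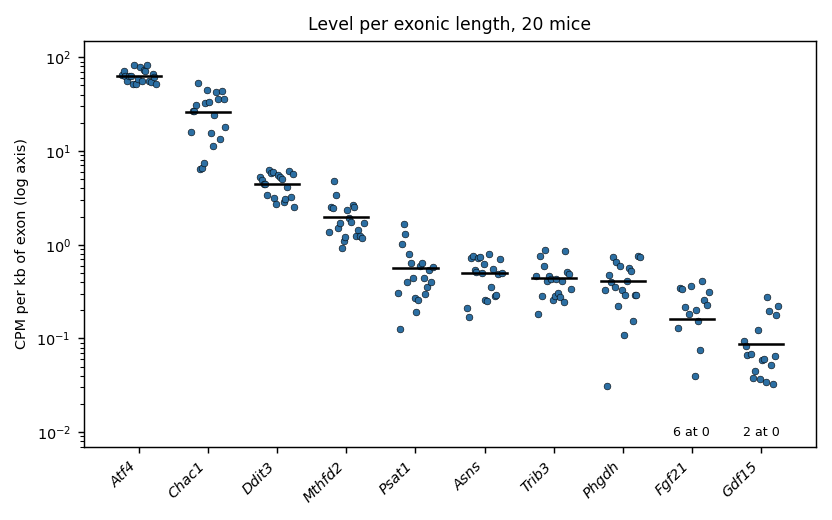
Level of each of the 10 genes in the 20 mice, in CPM per kilobase of exon on a log axis; each point is 1 mouse, the bar is the mean over all 20 mice including those at 0, and the number of mice at 0 is written under Fgf21 and Gdf15. Atf4 and Chac1 lie above the rest, Psat1, Asns, Trib3 and Phgdh overlap throughout, and Fgf21 and Gdf15 lie lowest.

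The genes also differ in how firmly they were counted. Atf4 (ENSMUSG00000042406, chr15:80255184-80257541) received 2008 to 4165 reads per mouse and Chac1 (ENSMUSG00000027313, chr2:119351229-119354381) received 198 to 1838. Ddit3 (ENSMUSG00000025408, chr10:127290774-127296288) received 66 to 303 and Mthfd2 (ENSMUSG00000005667, chr6:83305691-83325908) received 53 to 305. These 4 genes had at least 53 reads in every mouse.

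The remaining measured genes were thin. Psat1 (ENSMUSG00000024640, chr19:15904678-15947337) received 7 to 130 reads per mouse, Asns (ENSMUSG00000029752, chr6:7675169-7693254) received 6 to 47, Trib3 (ENSMUSG00000032715, chr2:152337422-152344032) received 5 to 53 and Phgdh (ENSMUSG00000053398, chr3:98313170-98339990) received 1 to 39. Counting error is therefore a larger part of their spread. Ddit3 shares 68 bases with Mars, a gene on the opposite strand, and overlaps the processed transcript Gm4189, also on the opposite strand. It also overlaps a second identifier named Ddit3, ENSMUSG00000116429, of 105 exonic bases, which had 0 reads and was not used. Psat1 overlaps the processed pseudogene Gm3329, and Mthfd2 overlaps the gene model Gm43890. The sources used here do not state how the counting treated strand, and reads in these overlaps cannot be assigned.

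The stress myokines were at the floor of the data. Fgf21 (ENSMUSG00000030827, chr7:45613886-45615490), a metabolic hormone secreted by stressed muscle and by liver, had 58 reads in all 20 mice together and 0 reads in 6 of them, with a highest count of 12. Gdf15 (ENSMUSG00000038508, chr8:70629393-70632456), a hormone that acts on appetite through the receptor GFRAL, had 55 reads in all, 0 reads in 2 mice and a highest count of 7. A count of 0 allows up to 3 reads in a library, for counting error only, and 12 of 20 mice for Fgf21 and 15 of 20 for Gdf15 had 3 reads or fewer.

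Fgf21 gave 0, 0, 2, 6 and 5 reads in untreated males, 0, 5, 0, 3 and 5 in untreated females, 0, 1, 3, 2 and 1 in HK-treated males and 12, 4, 0, 4 and 5 in HK-treated females. Gdf15 gave 3, 2, 2, 0 and 2 reads in untreated males, 2, 2, 0, 4 and 1 in untreated females, 2, 3, 1, 7 and 5 in HK-treated males and 3, 1, 2, 6 and 7 in HK-treated females. The groups overlapped for both genes. For Gdf15 the 4 counts above 4 were all in HK-treated mice of batch 2. Where every gene with at least 10 reads in total was kept, a setting chosen after the data were seen, the HK difference (log2 of HK-treated over untreated) was 0.94 ± 0.48 (SE) for Gdf15, with adjusted p = 0.823 by the edgeR quasi-likelihood test, and 0.21 ± 0.62 for Fgf21, with adjusted p = 0.978. The 95% intervals ran from -0.05 to 1.93 and from -1.08 to 1.49, and no difference was detected in either gene. The unadjusted p of the edgeR test was 0.0616 for Gdf15 and 0.742 for Fgf21.

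The main question of the design was whether HK altered the old muscle. None of the 8 measurable genes passed an adjusted p of 0.05 when 10 treated and 10 untreated mice were compared, fitted by edgeR with batch and sex as covariates. The background was 0% of 13626 genes tested in either direction. At an unadjusted p under 0.05 there were 835 genes, or 6.13% (2.78% higher and 3.35% lower with HK), and among the 8 genes there was 1, Psat1. DESeq2 called 6 genes, none of them among the 8, and limma voom called 0 genes. Without the filter on low counts edgeR called 502 genes, Psat1 and Chac1 among them, in a fit that, unlike the filtered one, had infinite prior degrees of freedom. Fold changes below are HK-treated over untreated on the log2 scale, with the SE.

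Among the regulators, Atf4 ran from 122 to 195 CPM with a median of 148 in untreated mice and from 123 to 193 CPM with a median of 151 in HK-treated mice. The groups overlapped almost entirely, and the fitted difference was 0.05 ± 0.09 (adjusted p = 0.939), with a 95% interval of 0.91- to 1.18-fold. Atf4 was the most tightly bounded of the genes. For Ddit3 the range was 4.65 to 10.7 CPM, median 7.97, in untreated mice and 4.38 to 10.5 CPM, median 7.86, in HK-treated mice, and the difference was -0.09 ± 0.15 (adjusted p = 0.938). For Trib3 it was 0.386 to 1.88 CPM, median 0.948, against 0.515 to 1.81 CPM, median 0.789, and the difference was -0.24 ± 0.27 (adjusted p = 0.891). All 3 regulators overlapped between the groups.

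The 4 enzymes of amino acid and one-carbon metabolism all had fitted differences below 0, as did 6682 of 13626 genes tested, and none passed the adjusted threshold. Their median was -0.26 on the log2 scale beside 0.00 for all genes tested. Of 11 other serine, glycine, folate and proline enzymes, 7 were above 0, with a median of 0.05. Psat1 had the largest difference, at -0.68 ± 0.29 (0.62-fold, 95% interval 0.41- to 0.94-fold, unadjusted p = 0.0278, adjusted p = 0.795, edgeR). Its values were 1.28, 0.541, 4.35, 7.11 and 5.48 CPM in untreated males and 1.70, 3.37, 2.69, 1.89 and 1.16 CPM in untreated females. In HK-treated mice they were 0.819, 1.09, 2.51, 2.72 and 1.88 CPM in males and 1.25, 1.51, 2.31, 1.69 and 2.48 CPM in females. The 3 untreated males of batch 2 held the 3 highest values, and the untreated range covered the HK-treated range. Asns ran from 0.463 to 2.08 CPM, median 1.59, in untreated mice and from 0.679 to 2.18 CPM, median 1.15, in HK-treated mice, a difference of -0.35 ± 0.20 (adjusted p = 0.808). Mthfd2 differed by -0.16 ± 0.17 (adjusted p = 0.886) and Phgdh by -0.12 ± 0.31 (adjusted p = 0.959). For Phgdh the sign depended on the data used: limma voom gave 0.03, the 12 mice of batch 2 gave 0.26, and leaving out untreated female replicate 2 gave 0.08.

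Chac1 differed by 0.30 ± 0.35 (1.23-fold, 95% interval 0.74- to 2.05-fold, adjusted p = 0.901). Its values were 26.0, 43.3, 43.9, 51.1 and 87.1 CPM in untreated males and 10.5, 10.6, 12.1, 53.6 and 72.6 CPM in untreated females. In HK-treated mice they were 55.0, 25.5, 18.4, 39.5 and 70.3 CPM in males and 59.1, 22.1, 72.2, 58.6 and 29.3 CPM in females. The 3 lowest values were those of untreated females, the highest was an untreated male, and the groups overlapped. Within subsets the Chac1 difference was 1.07 in batch 1 and -0.15 in batch 2, and 0.87 in females and -0.23 in males, none past the adjusted threshold.

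**Figure D2:**
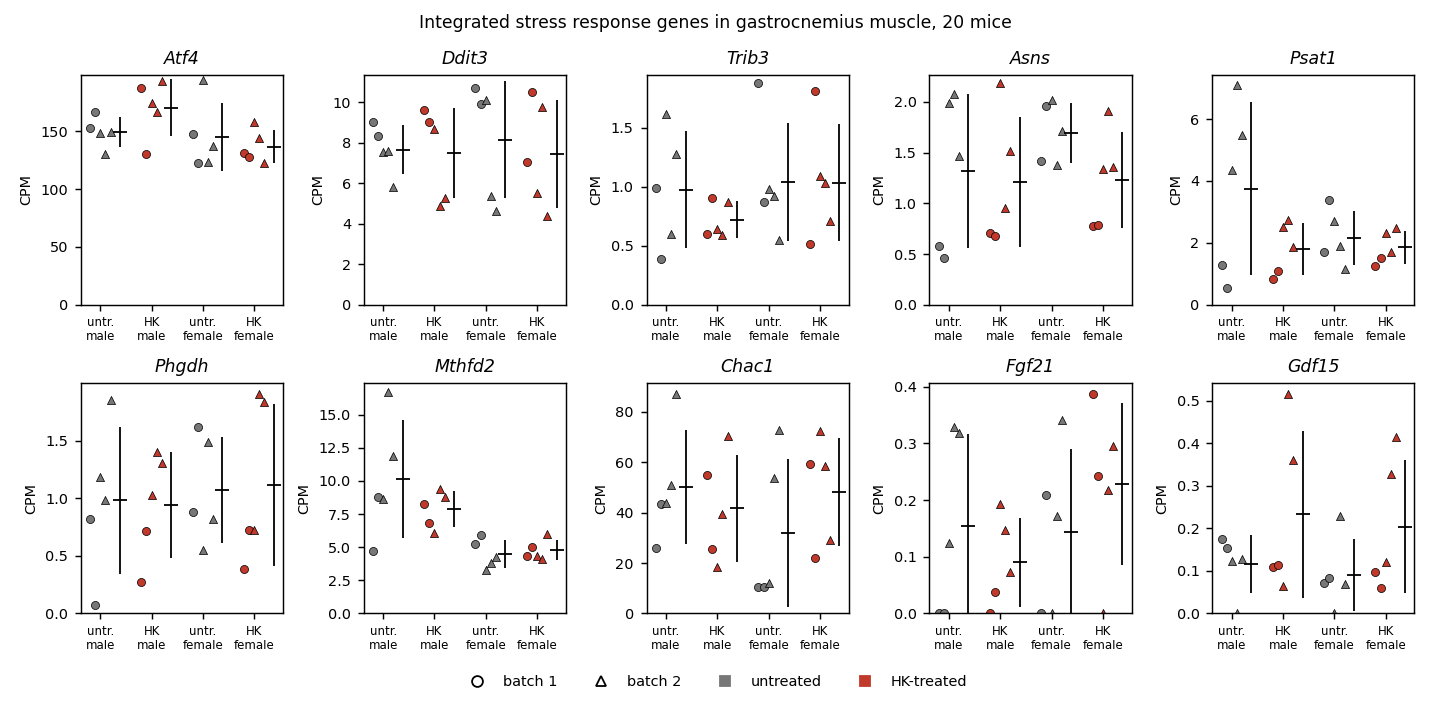
CPM of the 10 genes in each mouse, by treatment and sex (5 mice per column; grey untreated, red HK-treated; circles batch 1, triangles batch 2), with the mean and SD of each column as a bar to its right and every axis starting at 0. Treated and untreated columns overlap for each gene, male columns of Mthfd2 lie above the female columns apart from 1 male at 4.73 CPM, and Chac1 is scattered in every column.

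Whether the response to HK differed by sex or by batch was tested with an interaction term. No gene passed the adjusted threshold for treatment by sex (0% of 13626 genes called, with 3.49% at an unadjusted p under 0.05) or for treatment by batch (0%, with 3% at an unadjusted p under 0.05), and limma voom also called 0 genes in both. Without the filter on low counts edgeR called 314 and 225 genes, with 1 of the members in each. With the filter, none of the 8 genes reached an unadjusted p under 0.05 in either test by edgeR. The largest terms were those of Chac1, at -0.96 ± 0.67 for males relative to females and -1.06 ± 0.68 for batch 2 relative to batch 1.

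Cell markers did not pass the threshold in the HK comparison either. All 10 macrophage genes, all 5 endothelial genes and all 5 fibroblast genes had fitted differences below 0, with medians of -0.29, -0.26 and -0.22, the 4 haemoglobin genes were above 0 with a median of 0.52, and none of these was called. Nor was any of the 7 muscle fibre, 5 adipocyte, 8 denervated fibre or 2 testable neutrophil genes, with medians of 0.06, -0.03, -0.08 and -0.27. Their part in the values of the 8 genes was not tested.

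Between the sexes, 1 of the 8 genes passed the threshold. Mthfd2, which in mitochondria oxidises methylene-tetrahydrofolate and is an ATF4 target, was higher in males than in females by 0.93 ± 0.18 on the log2 scale (1.90-fold, 95% interval 1.47- to 2.46-fold, adjusted p = 0.00104, edgeR). This 1 of 8 stands beside 16.1% of 13626 genes tested (8.79% higher and 7.33% lower in males). Its levels in males were 4.73, 8.80, 8.64, 16.7 and 11.9 CPM without treatment and 8.25, 6.79, 6.10, 9.35 and 8.76 CPM with HK. In females they were 5.20, 5.95, 3.25, 3.84 and 4.24 CPM without treatment and 4.34, 5.02, 4.31, 4.14 and 5.97 CPM with HK. All 10 males were above the female median of 4.33 CPM, and only 1 male, at 4.73 CPM, lay within the female range.

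The sex difference of Mthfd2 kept its direction and its call when any 1 mouse was left out, with log2 values from 0.81 to 1.02 and an adjusted p of at most 0.00326. In subsets it was 0.47 in batch 1 (adjusted p = 0.174) and 1.21 in batch 2 (adjusted p = 0.00651), and 1.13 in untreated mice (adjusted p = 0.0681) and 0.72 in HK-treated mice (adjusted p = 0.0234). A sex by batch term, added after the data were seen, was 0.75 ± 0.32 for Mthfd2 (unadjusted p = 0.0310, adjusted p = 0.329), so the difference between batches did not pass the threshold. Adipocyte markers moved with sex, all 5 lower in males and 4 of them called, with a summed level of 96.9 to 295 CPM in females and 73.2 to 182 CPM in males. Macrophage genes were above 0 in 9 of 10 cases with 1 called, their sum running from 37.9 to 195 CPM in females and 22.6 to 308 CPM in males. Of the 7 muscle fibre genes 2 were called higher and 1 lower in males, of the 8 denervated fibre genes 1 was called in each direction, and of the 2 neutrophil genes 1 was called lower, with a median of -1.97. All 5 endothelial genes were below 0 with a median of -0.33, and no endothelial, fibroblast or haemoglobin gene was called. The part of these cells in the Mthfd2 difference was not tested.

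The other 7 genes did not pass the threshold between the sexes. Atf4 had a median of 160 CPM in males and 134 CPM in females, a difference of 0.18 ± 0.09 (adjusted p = 0.169), and 8 of 10 males were above the female median. Without untreated female replicate 3, which at 195 CPM had the highest Atf4 of all mice, the difference was 0.25 (adjusted p = 0.0241). When each mouse in turn was left out, it ran from 0.13 to 0.25, with an adjusted p from 0.0241 to 0.325 by edgeR. Chac1 differed by 0.30 ± 0.35, Psat1 by 0.21 ± 0.30 and Ddit3 by -0.03 ± 0.15. Trib3, Phgdh and Asns differed by -0.28 ± 0.27, -0.26 ± 0.32 and -0.29 ± 0.21. The serine enzyme Psat1 was uneven between batches, at -0.96 in batch 1 and 0.86 in batch 2, and its sex by batch term was 1.83 ± 0.47 (unadjusted p = 0.00098, adjusted p = 0.158).

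**Figure D3:**
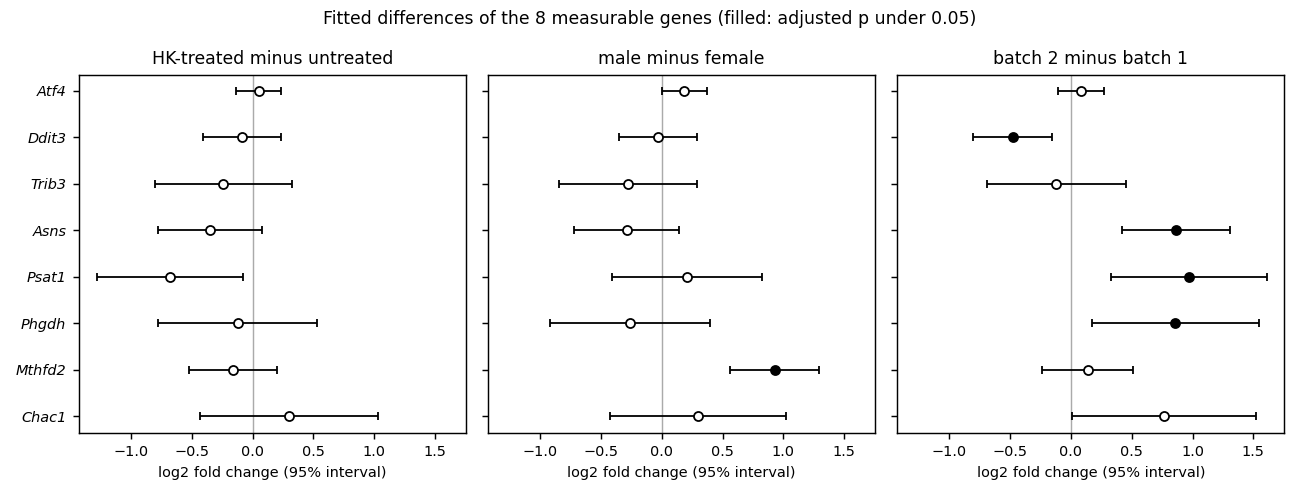
Fitted log2 fold change with its 95% interval for the 8 measurable genes in the HK, sex and batch comparisons (20 mice; filled points have an adjusted p under 0.05 by edgeR). No HK difference is filled, Mthfd2 alone is filled for sex at 0.93, and Asns, Psat1, Phgdh and Ddit3 are filled for batch.

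More of the 8 genes were called between batches than for treatment or sex, and the same order held over all genes tested. Asns, Psat1 and Phgdh were higher in batch 2 by 0.86 ± 0.21 (adjusted p = 0.00380), 0.97 ± 0.31 (adjusted p = 0.0175) and 0.86 ± 0.33 (adjusted p = 0.0459), and Ddit3 was lower by 0.48 on the log2 scale (-0.48 ± 0.15, adjusted p = 0.0193). These 4 of 8 stand beside 37.1% of 13626 genes called, 18.2% higher and 19% lower. The Psat1 shift lay mainly in males, with means of 0.934 CPM in batch 1 and 4.01 CPM in batch 2. In females the Psat1 means were 1.96 and 2.04 CPM. The Asns means were 0.609 and 1.70 CPM in males, and 1.23 and 1.62 CPM in females. The sex by batch term of Asns had unadjusted p = 0.0156 and adjusted p = 0.277 by edgeR. Mean Phgdh was higher and mean Ddit3 lower in batch 2 in both sexes. The call of Phgdh was lost when any of 15 of the 20 mice was left out. Atf4 differed by 0.08 ± 0.09, Mthfd2 by 0.14 ± 0.18, Trib3 by -0.12 ± 0.27 and Chac1 by 0.76 ± 0.36, none past the threshold. The Chac1 difference passed without HK-treated male replicate 3 (0.90, adjusted p = 0.0444) and without HK-treated female replicate 1 (1.03, adjusted p = 0.0355).

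Asns ran from 0.463 to 1.96 CPM, median 0.741, in the 8 mice of batch 1 and from 0.957 to 2.18 CPM, median 1.61, in the 12 of batch 2. All 12 mice of batch 2 were above the batch 1 median. Ddit3 ran from 7.05 to 10.7 CPM, median 9.33, in batch 1 and from 4.38 to 10.1 CPM, median 5.66, in batch 2, and all 8 mice of batch 1 were above the batch 2 median. All 10 macrophage genes, all 5 fibroblast genes and all 4 haemoglobin genes were also called higher in batch 2, with macrophage sums of 22.6 to 77.1 CPM in batch 1 and 70.7 to 308 CPM in batch 2. Genes of denervated fibres (such as Chrna1 and Myog) were called higher in 5 of 8 cases. Both neutrophil genes that could be tested were higher in batch 2, whereas endothelial genes were called in 0 of 5 cases, adipocyte genes in 1 of 5 and muscle fibre genes in 2 of 7. The part of these cells in the batch differences of the 4 genes was not tested.

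Spread between mice, after treatment, sex and batch were fitted, set Chac1 apart. Its biological coefficient of variation was 52.1%, against a trend of 14.4% for genes of its level, and it was above 98.2% of all genes tested and above 99.3% of the 1000 genes nearest in level. The highest mouse had 8.32 times the CPM of the lowest. This ratio was larger in the thinly counted genes Psat1 (13.2) and Phgdh (24.7, with 1 read in the lowest mouse). Atf4, which was expressed more strongly still, had a coefficient of 14.4% and a ratio of 1.59 between extremes. Ddit3, Asns and Mthfd2 had coefficients of 23.0%, 25.7% and 26.2%, and Trib3, Psat1 and Phgdh of 35.6%, 42.4% and 43.0%. Psat1 stood above 95% of the 1000 genes nearest in level, Mthfd2 above 87.6% and Phgdh above 86.1%. Atf4 too was above 83.3% of the genes nearest in level, Ddit3 above 82.5%, Trib3 above 77.9% and Asns above 57.5%.

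Whether the genes varied together between animals was examined over the 28 pairs of the 8 genes. The log2 CPM was adjusted for treatment, sex and batch, and p-values came from 100000 permutations with adjustment over the 28 pairs. No pair passed by Pearson's r, and 2 pairs passed narrowly by Spearman's rho. The permutations did not allow for the terms already fitted, so their p-values are likely too small, and these 2 calls are uncertain. Ddit3 and Asns had r = 0.57 (permutation adjusted p = 0.0753) and rho = 0.66 (permutation adjusted p = 0.0456), and r = 0.67 without the 2 mice farthest from the median. Psat1 and Mthfd2 had r = 0.55 (permutation adjusted p = 0.0914) and rho = 0.63 (permutation adjusted p = 0.0456), and r = 0.71 without the 2 farthest mice. Within batches r was 0.47 and 0.78 for the first pair, and -0.23 and 0.58 for the second, in 8 and 12 mice.

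The highest r of all was that of the serine enzymes Psat1 and Phgdh, at 0.58 (permutation adjusted p = 0.0753, rho = 0.37), and it was 0.94 in batch 1, 0.08 in batch 2 and 0.33 without the 2 farthest mice, 1 from each batch. Within batch 1 the pair passed the threshold (permutation adjusted p = 0.0246), the only pair to do so in either batch. This p is likely too small, since the permutations did not allow for the terms fitted in so few mice. The relation did not hold in batch 2 or without those 2 mice, of which untreated male replicate 2 had 7 reads of Psat1 and 1 of Phgdh. Psat1 and Asns had r = 0.57 (permutation adjusted p = 0.0753, rho = 0.44), with 0.75 in batch 1 and 0.04 in batch 2. Atf4 itself had r of -0.42, -0.38 and -0.51 with Mthfd2, Psat1 and Phgdh, and of -0.18 with Chac1. Chac1 had r of -0.51 with Ddit3 and -0.50 with Asns. None of these negative pairs passed the threshold, and over all 28 pairs 15 were positive, with a median r of 0.09.

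**Figure D4:**
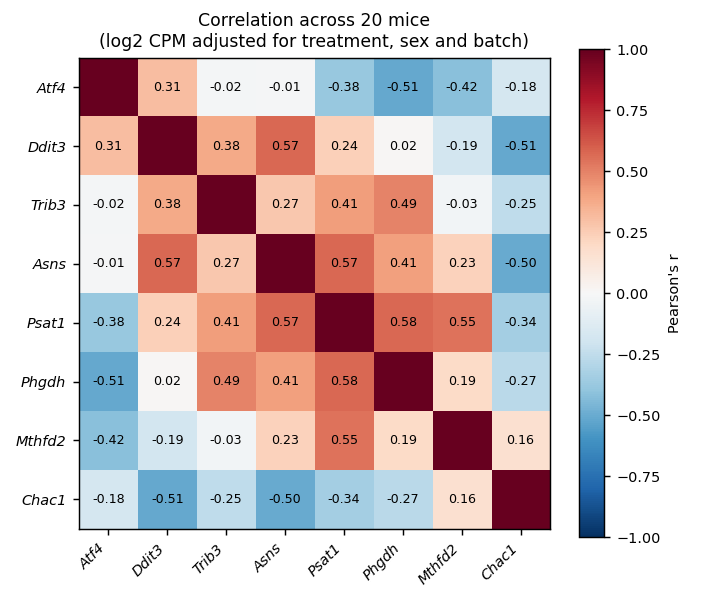
Pearson's r between the 8 measurable genes across 20 mice, on log2 CPM adjusted for treatment, sex and batch; red is positive and blue is negative. The values among Asns, Psat1, Phgdh, Trib3 and Ddit3 are positive (0.02 to 0.58), whereas Atf4 and Chac1 have mostly negative values with them.

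Among all genes tested, those with the highest r with Atf4 over the 20 mice were Kansl2 (0.88), Gzmm (0.87), Csnk1e (0.85), Trp53bp2 (0.85) and Spint2 (0.85). Those most like Chac1 were Ube2c (0.84), Gm14322 (0.83), mt-Nd6 (0.81), Amz2 (0.79) and Fam114a2 (0.79). No member of the 10 genes appears in either list. These are descriptions over libraries that share batch and depth.

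The wider pathway was read from 10 lists with 102 genes, of which 97 could be tested. In the HK comparison 58 had values above 0 and 39 below, beside 6944 above 0 among the 13626 genes tested. Their median was 0.01 on the log2 scale beside 0.00 for all genes, and none of the 97 was called. At an unadjusted p under 0.05 there were 6, all higher, beside 2.78% of all genes that were higher at that p and 3.35% that were lower. The lowest p was that of Cebpb, a transcription factor of the ATF4-related list, named here after its values were seen. It ran from 5.45 to 25.4 CPM, median 12.5, in untreated mice and from 6.56 to 47.1 CPM, median 23.1, in HK-treated mice, a difference of 0.85 ± 0.20 with adjusted p = 0.722. By list, values were above 0 in 4 of 4 eIF2alpha kinases, 6 of 13 subunits of eIF2, eIF2B and the eIF2alpha phosphatases, 6 of 9 ATF4-related transcription factors, 7 of 11 serine, glycine, folate and proline enzymes and 5 of 7 amino acid transporters. They were above 0 in 4 of 12 cytosolic tRNA synthetases, 6 of 12 other ATF4 targets, 11 of 16 chaperones and other genes of the unfolded protein response, 8 of 11 mitochondrial stress genes and 1 of 2 receptors of FGF21 and GDF15. In the receptor list, where no gene was called for treatment or sex, Ret, the signalling partner of the GDF15 receptor, had the lowest p and differed by -0.17 ± 0.29.

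Between the sexes 19 of the 97 were called, 7 higher and 12 lower in males beside the background of 16.1%. Folate and proline enzymes moved both ways beside Mthfd2. Aldh18a1, which starts proline synthesis, was higher in males by 0.80 ± 0.14 (adjusted p = 0.00058), whereas the cytosolic folate enzymes Shmt1 and Mthfd1 were lower by 0.42 and 0.24 on the log2 scale (adjusted p = 0.00316 and 0.0129). Shmt1 ran from 10.9 to 19.2 CPM in females and 7.52 to 13 CPM in males. Among amino acid transporters Slc6a9 (glycine) and Slc1a5 (glutamine) were lower by 0.66 and 0.55, and Slc7a5, the light chain of the large neutral amino acid transporter, was higher by 0.40.

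Other ATF4 targets were called in 6 of 12 cases, 3 in each direction, beside 16.1% of all genes tested. Stc2, a secreted glycoprotein, ran from 4.03 to 27.4 CPM in females and 0.957 to 3.62 CPM in males. It was lower in males by 1.91 on the log2 scale (adjusted p = 0.00092). Cth, which makes cysteine from cystathionine, was lower in males by 0.77 and Vldlr, a lipoprotein receptor, was higher by 0.75. Atf5, a transcription factor related to ATF4, was lower by 0.30 and Xbp1, a factor of the unfolded protein response, by 0.43. Eif2s3x, the X-linked gene for the gamma subunit of eIF2, which has a close copy on the Y chromosome, was lower in males by 0.80, and Eif2ak1, the haem-regulated eIF2alpha kinase, by 0.14 (adjusted p = 0.0488). Of the tRNA synthetases, Mars was lower by 0.25 and Sars higher by 0.14, and of the mitochondrial list Mfn2, a fusion protein of the outer membrane, was higher by 0.18. In batch 2 relative to batch 1, 23 of the 97 were called higher and 17 lower, beside 18.2% and 19% of all genes, with amino acid transporters higher in 6 of 7 cases and tRNA synthetases lower in 4 of 12.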

How the data were processed

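Gastrocnemius RNA of 20 mice was sequenced after rRNA depletion. The authors deposited raw read counts per gene, not normalised, in 1 matrix, and the submitters' processing notes name FastQC, STAR 2.6.1c, GRCm38.p6 and DESeq2 1.28.1. The annotation was GENCODE M25 per the study's methods. The sources used here do not state the counting program, its use of strand or its treatment of reads with several matches. Multi-copy or overlapping genes are therefore uncertain. All columns were mapped to a mouse by their names, and 0 columns were left unused. Positions and exon lengths came from GENCODE M21, on GRCm38.p6, and promoter windows from RefSeq.

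Counts were scaled by TMM and filtered with filterByExpr over the 4 groups of treatment and sex, which left 13626 of 30096 genes with any count. Depth of 13900180 to 30469644 reads sets the precision, and intervals on counts cover counting error only. The edgeR 4.0.16 quasi-likelihood test (R 4.3.3) was fitted over all 20 mice with batch, sex and treatment, and p-values were adjusted by Benjamini-Hochberg over all 13626 genes at a threshold of 0.05. Interactions were fitted as added terms. Intervals are 95% intervals of the fitted coefficient, and log2 CPM used a prior count of 2. Correlations used Python 3.11.15 with numpy 2.4.6 and 100000 permutations, two-sided. The permutations shuffled the adjusted values without allowing for the terms fitted. The scripts were tested on simulated data. Labels give separate mice, so p-values measure the spread between mice.

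Members, gene lists and tests were chosen with earlier results of these data known. The named genes were all 10 members, then in each of the 10 pathway lists up to 3 genes per comparison with the lowest p among those past the threshold for HK or sex (or, where none passed, the gene with the lowest p for HK), and the 5 genes most correlated with Atf4 and with Chac1, the member of largest variation. Cebpb was named outside this rule, after its values were seen. Marker lists covered muscle fibre, macrophage, neutrophil, endothelial, fibroblast, adipocyte, blood and denervated fibre genes. Alternatives were DESeq2 size factors, DESeq2 1.42.0, limma 3.58.1 voom, no filter, no covariates, a replicate block, each batch, sex or treatment alone, and leaving out each mouse. A minimum of 10 counts in total, a robust prior without a filter and the sex by batch term were chosen after seeing the data.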

Additional observations from a re-analysis of the deposited data

Results flagged for a closer look

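Of 40 sets of 5 mice (the 10 genes in each group of treatment and sex), 1 held a mouse far from the others. Gdf15 was at 0 CPM, from 0 reads, in untreated male replicate 4, whereas the other 4 untreated males had 0.124 to 0.175 CPM, which is 2 or 3 reads each. The gap made up 0.7102 of the range of the group, against a critical value of 0.71 for 5 samples. Chance flags about 1 in 20 such sets, and a count of 0 allows up to 3 reads, which covers the counts of the other mice. With the filter on low counts, no difference in the effect of HK between the sexes or between batches passed the threshold for any of the 8 measurable genes.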

How the results depend on the processing

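Without the filter on low counts, edgeR called 502 genes and 2 of the members (Chac1, adjusted p = 0.00379, and Psat1, adjusted p = 0.00272) for HK, 2 members for sex (Mthfd2 and Chac1), and 1 member each for treatment by sex and treatment by batch, beside 314 and 225 genes. A robust prior gave the same counts for HK and sex and was not run for the interactions. In that fit the prior degrees of freedom were infinite, against 4.26 with the filter, and the moderated quasi-dispersion of Chac1 was 0.571 instead of 12.7, while the unmoderated values were 15.9 and 16. With a minimum of 10 counts in total, 0 genes were called for HK, and for batch 3 members, Phgdh being lost (adjusted p = 0.0539). DESeq2 called 6 genes for HK, and leaving out 1 mouse gave 0 to 1. For sex, batch 1 alone and untreated mice alone called 0 members, and leaving out 1 mouse gave 1 to 2. Over all genes sex gave 1312 in batch 1, 936 in batch 2, 452 in untreated and 630 in HK-treated mice alone. Leaving out 1 mouse gave 1829 to 2284 genes for sex, 4451 to 5253 genes for batch and 3 to 4 members for batch. Of the 28 pairs, 2 passed without the 2 farthest mice and 1 within batch 1, by permutation p-values that are likely too small.

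Signs turned for small HK differences: Atf4 was -0.038 in batch 1 and -0.090 in females, Phgdh 0.027 with voom, 0.26 in batch 2 and -0.25 to 0.078 when 1 mouse was left out, Mthfd2 0.085 in females, and Chac1 -0.15 in batch 2 and -0.23 in males. For sex, Ddit3 was 0.011 with voom, 0.0051 in HK-treated mice and -0.10 to 0.062 when 1 mouse was left out, and in batch 2 Trib3, Asns and Phgdh were 0.034, 0.055 and 0.069. Psat1 was -0.96 in batch 1 and -0.10 in HK-treated mice, and Chac1 -0.20 in HK-treated mice. For batch, Trib3 ran from -0.23 to 0.072 when 1 mouse was left out. The cause of these changes of sign was not tested.

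Between same-numbered mice of a sex r ran from -0.33 to 0.23, and 3 of 10 pairs, all female, correlated best with their own number. This check cannot show whether the numbers pair the mice. With the replicate block, 0 members and 0 genes were called for HK. The low reads of Fgf21, Gdf15, Phgdh, Trib3 and Asns limit what can be detected.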
